A study of Mus musculus with 8 samples.

Results

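Carboxylesterases of the Ces1, Ces2 and Ces3 families were followed in the liver of mice that lack the N-terminus of the Lamin B receptor (Lbr) and of wild-type (WT) mice of both sexes. The members were 10 genes, Ces1c, Ces1d, Ces1e, Ces1f, Ces1g, Ces2a, Ces2b, Ces2e, Ces3a and Ces3b, found by the Ensembl identifier of each symbol among the 49671 rows of the count table. They were picked from the table with their levels in these same libraries already known. The levels of the members and the fold changes fitted to them are for that reason given as a description, without a p-value or FDR for a single member. All 10 were among the 13117 genes tested, that is, genes that reached 1 CPM (reads scaled to library size) in 2 libraries or more. Ces2b passed this filter only through the male WT libraries, where it was high, so a difference of this gene from the other groups was built into its being tested.

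The series holds 8 liver libraries, with 2 in each of 4 groups, WT males, NT-KO males, WT females and NT-KO females. The NT-KO animals are homozygous for a short CRISPR/Cas9 deletion that removes the first translation start of Lbr together with part of the intron before it, and leaves the sterol reductase domains. Per the study's methods the line goes back to a founder male bred to C57BL/6N females. The labels give the strain C57BL/6 and the age post weaning for every group, with no age in days. No group received an agent, and WT and NT-KO animals share no other allele named in the labels. The labels do not say whether the libraries of a group come from separate litters, so p-values measure only the spread between these libraries.

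Carboxylesterases cleave ester, amide and thioester bonds with a catalytic serine, and the liver is one of their main sites. They are known for the hydrolysis of ester drugs and pesticides, and several of them also cleave triglycerides, cholesteryl esters and retinyl esters, in part within the lumen of the endoplasmic reticulum (ER) where VLDL is put together. Most carry a short retention signal at their end that holds them in the ER, and those without it can be secreted. In rodents the genes have multiplied in tandem, so that a mouse has many close copies where a human has few.

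The libraries held between 45020377 and 64396291 counted reads each, and a count of 3, taken as the floor, was worth between 0.0441 and 0.0708 CPM. All CPM below were scaled by edgeR's TMM method. The 8 hepatocyte markers summed to between 78210 and 111959 CPM and were all above the floor in every library. All 5 pancreas markers and 4 of 5 kidney markers were at or under the floor in every library, and the 5 adipocyte markers summed to at most 1.26 CPM. Xist lay between 788 and 967 CPM in the female libraries and at most at 3.21 CPM in the male ones, and the Y-linked Ddx3y between 30.8 and 48.5 CPM in males and at most at 0.0459 CPM in females, so the sex labels held in all 8 libraries. Lbr itself, whose reads outside the deletion are still counted, lay between 6.54 and 7.99 CPM in the 4 WT libraries and between 12.8 and 14.04 CPM in the 4 NT-KO libraries. In edgeR's quasi-likelihood test this difference did not pass (FDR 0.166 over both sexes, 5.76e-05 in edgeR's likelihood ratio test). The 2 male WT libraries stood apart from the rest in other genes. The mean centred log2 level of 11 ER chaperones was 1.86 in male WT replicate 2 and 0.51 in male WT replicate 1, against -0.57 to -0.04 in the other libraries. The erythroid markers summed to 882 CPM in male WT replicate 1 and 417 in male WT replicate 2, against 153 to 368 elsewhere. For males and for WT, the change with single libraries left out is given beside the values below.

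The genes lie on mouse chromosome 8 in 2 runs (positions on GRCm38, GENCODE M21). On the minus strand, 9 carboxylesterase genes stand between 93020214 and 93535830, of which 5 are members, from Ces1c (93099015 to 93131283) to Ces1g (93302369 to 93337308). On the plus strand, 11 genes stand between 104734003 and 105150109, of which the other 5 are members, from Ces2a (104734003 to 104741634) and Ces2b (104831572 to 104840093) to Ces3b (105083753 to 105093929). The coding sequences follow this layout. Within the Ces1 members the identity of the aligned coding bases ran from 72.3% to 81.5%, within the Ces2 members from 82.4% to 83.1%, and Ces3a and Ces3b were 95.3% identical, while pairs from different families ran from 54.7% to 59.2%.

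**Figure D1:**
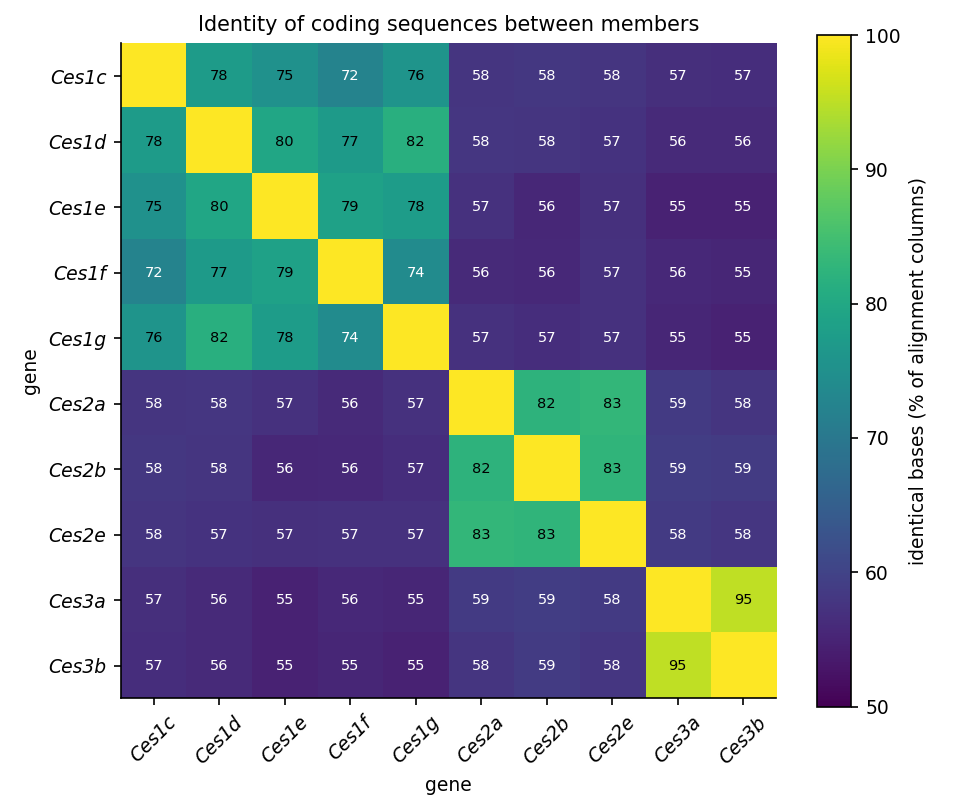
Identity of the coding sequences between the 10 members, as the percentage of identical bases over the columns of a pairwise alignment; both axes list the genes in chromosomal order and the diagonal is each gene against itself. The families appear as separate blocks, with Ces3a and Ces3b, at 95.3%, the closest pair.

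The family's active site is shown here because it is what the members have in common. Whether reads are shared between near copies at this site was not examined. Each line gives 45 coding bases 5′ to 3′ from the GENCODE M21 transcripts, with the 5 codons around the catalytic serine codon in capitals.
Ces1c: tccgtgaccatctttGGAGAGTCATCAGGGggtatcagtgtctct
Ces1d: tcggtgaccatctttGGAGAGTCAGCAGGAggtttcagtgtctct
Ces1g: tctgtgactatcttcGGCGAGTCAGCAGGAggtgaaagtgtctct
Ces2a: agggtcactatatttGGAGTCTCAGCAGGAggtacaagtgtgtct
Ces2b: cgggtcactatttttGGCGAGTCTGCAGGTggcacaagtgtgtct
Ces3a: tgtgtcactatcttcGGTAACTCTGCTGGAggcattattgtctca
Ces3b: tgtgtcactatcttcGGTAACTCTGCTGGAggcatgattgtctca
The window of Ces2b was the same, base for base, as that of its neighbour Ces2c, which is no member.

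The ends of the coding sequences bear on where the enzymes stay. The lines below give the last 8 codons before the stop and the stop itself, with the 4 codons before the stop in capitals.
Ces1c: cctactgaacacACAGAACACAAAtga
Ces1d: tcccacagggaaCATGTTGAGCTCtga
Ces1g: tcccatagggaaCATGTTGAACTGtga
Ces2b: tctcaggacaagCACACGGAGCTTtag
Ces3a: agcaggaaagttCCAGAGGAGCTCtga
A histidine codon, any codon, a glutamate codon and a leucine codon, the form of the ER retention signal known in this family, stood in these 4 places in 7 of the 10 members. It was not found in Ces1c, which is known as an esterase secreted into mouse plasma, nor in Ces3a and Ces3b, which end on the same 8 codons as each other.

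The share of each member that cannot be told from another gene by its sequence was measured as the share of its 50-base stretches that occur in a transcript of another gene. It was 25.6% for Ces3a and 26.2% for Ces3b, all with each other. For Ces2a it was 17.3%, mostly with the transcribed pseudogene Gm7208, which itself had between 15.6 and 35.2 CPM. It was 13.0% for Ces1c, with Ces1b as the main partner, and 9.66% for Ces2b, of which 2.91% was with Ces2c. The other 5 members were between 0.903% and 3.30%. Values of Ces3a and Ces3b are uncertain to the extent that the counting could split reads between the copies. To a lesser extent this holds for Ces2a, Ces1c and Ces2b. The handling of reads with several matches is not given in the sources used here.

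As a group the members had sums of like size in all 4 groups. Their sum was 9949 and 7093 CPM for male WT, then 10366 and 8005 for male NT-KO, 7299 and 8235 for female WT and last 7815 and 9092 for female NT-KO. No group stood apart in this sum. Ces1c and Ces3a alone made up between 56.3% and 67.7% of this sum in each library. The makeup of the sum differed between the sexes. The Ces3 members summed to between 2693 and 4938 CPM in the 4 male libraries and to between 1643 and 1760 CPM in the 4 female libraries, without overlap. The Ces1 members summed to between 2948 and 5354 CPM in males and to between 5275 and 6850 CPM in females, and only male NT-KO replicate 1 reached into the female range. In bulk liver, fewer cells of a type and less RNA per cell cannot be told apart.

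Per kilobase of exon, so that genes can be set against each other, Ces3a (1140 ± 108 CPM per kb, SD, n = 2) and Ces1c (1035 ± 239) led the order in male WT and overlapped. Ces3b followed at 504 ± 248 and Ces1d at 285 ± 94.6, which also overlapped. In female WT, Ces1c led alone at 1552 ± 102 CPM per kb, and Ces1d (512 ± 63.6) stood above Ces3a (416 ± 10.4) without overlap. Male NT-KO kept Ces1c (1182 ± 190) and Ces3a (1013 ± 312) at the top, overlapping, with Ces1d (496 ± 82.7) and Ces3b (345 ± 152) next. In female NT-KO the first 4 were Ces1c, Ces1d, Ces3a and Ces3b, each above the next without overlap. Ces2b was the lowest member in every group, at 4.98 ± 2.27 CPM per kb in male WT and at most 0.185 ± 0.127 in the other groups. In between, Ces1e, Ces1f, Ces1g, Ces2a and Ces2e had group means between 39.3 and 198 CPM per kb. Their order in male WT was Ces2a, Ces1f, Ces2e, Ces1e and Ces1g, of which Ces1e and Ces1g overlapped. In both female groups it began with Ces1f, Ces1g and Ces2a, where each overlapped with the next.

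**Figure D2:**
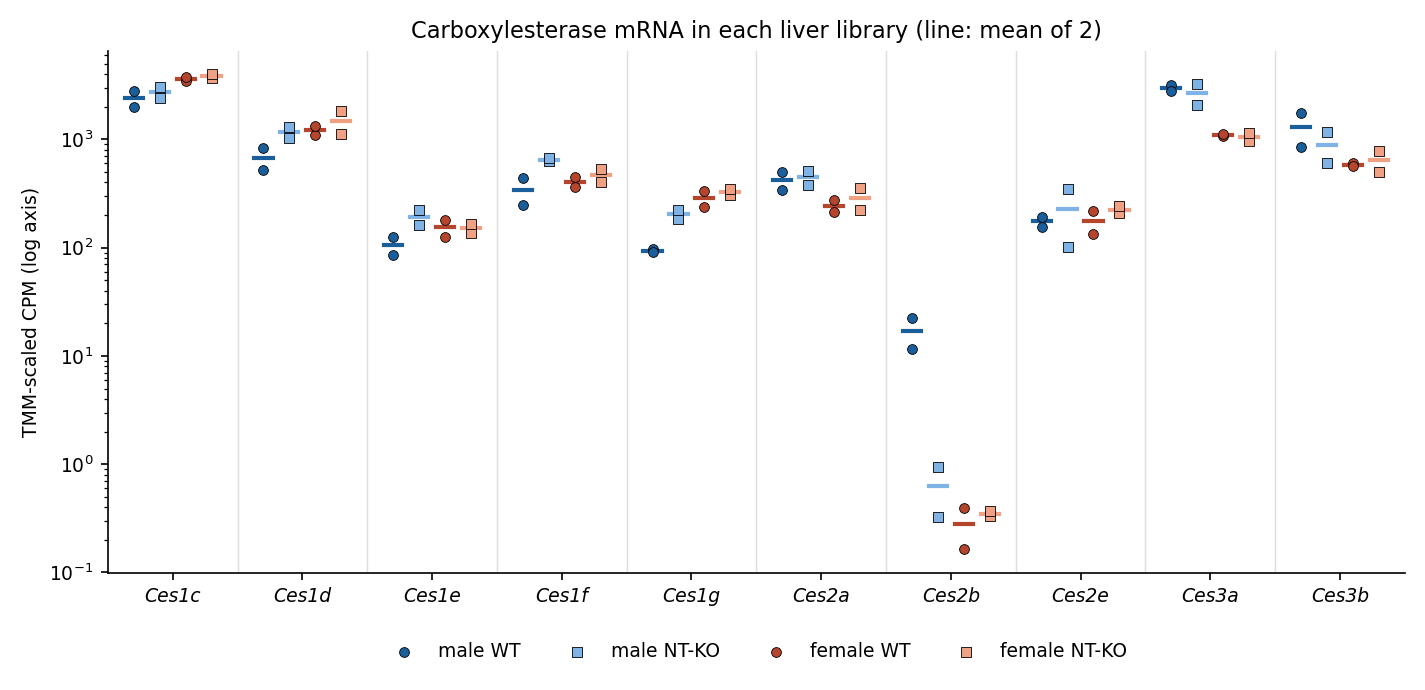
TMM-scaled CPM of the 10 members on a log axis in each of the 8 liver libraries; each point is 1 library, the colour and shape give the group and the line is the mean of 2 libraries. Ces2b stands at 11.5 and 22.4 CPM in male WT and under 1 CPM in all other libraries, Ces1g is lowest in male WT, and Ces3a is higher in all male than in all female libraries.

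The first question was how the members differ between NT-KO and WT livers of males. Of the Ces1 genes, Ces1d, Ces1e, Ces1f and Ces1g were higher in both male NT-KO libraries than in both male WT libraries, by 1.74-fold to 2.18-fold, and Ces1c was not. Ces2b was lower by 27.0-fold. The remaining Ces2 and Ces3 members overlapped between the groups. None of the 10 members was called by edgeR's quasi-likelihood test (FDR up to 0.05 with a log2 fold change beyond 1 in size), which called 0.0152% of all genes tested. Of the members, 5 had an unadjusted p under 0.05, against 11.5% of all genes tested. edgeR's likelihood ratio test called 2 members, Ces1g and Ces2b, with 1.56% of all genes called, and DESeq2 called the same 2 with 1.66% called. The calls of Ces2b are no test, since this gene entered the fit only through male WT. Groups without overlap were seen for 4 members upward, where 19.6% of all genes lay higher, and for 1 downward, where 19.2% lay lower. Since the members were picked with these values known, nothing is read from these shares. The median log2 fold change was 0.28 over the members and 0.012 over all genes tested.

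Ces1g, an ER enzyme known for the hydrolysis of triglycerides and cholesteryl esters, had 97.4 and 90.2 CPM in male WT and 186 and 222 CPM in male NT-KO. Both NT-KO libraries lay above both WT libraries, and the WT libraries were close to each other. The log2 fold change was 1.12 ± 0.21 (SE, n = 2 against 2). It stayed between 0.98 and 1.25 when each library was left out in turn.

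Ces1d, the triacylglycerol hydrolase of liver microsomes that supplies lipid for VLDL, had 833 and 516 CPM in male WT and 1313 and 1036 CPM in male NT-KO. The groups did not overlap, and the log2 fold change was 0.80 ± 0.32. The size of this difference rested in part on male WT replicate 2, the lowest of all 8 libraries: it was 0.49 without that library and 1.18 without replicate 1 of that group. The chaperone level of male WT replicate 2 was the highest of all, and its part in the result was not tested.

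Ces1e, known as egasyn, holds beta-glucuronidase in the ER. It had 125 and 85.2 CPM in male WT and 163 and 221 CPM in male NT-KO, with no overlap and a log2 fold change of 0.87 ± 0.27. Male WT replicate 2 was again the lowest library, and without it the log2 fold change was 0.62, against 1.17 without replicate 1 of that group. Its partner Gusb, which encodes beta-glucuronidase, had 31.8 and 31.3 CPM in male WT and 21.99 and 30.1 CPM in male NT-KO, so it was not higher where Ces1e was.

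Ces1f, a second microsomal triglyceride hydrolase, had 441 and 246 CPM in male WT and 634 and 666 CPM in male NT-KO. The NT-KO libraries were close to each other and above both WT libraries, and the log2 fold change was 0.92 ± 0.29. It was 0.56 without male WT replicate 2, the lowest library here too, and 1.40 without replicate 1 of that group. Ces1c, the plasma esterase, had 2796 and 2010 CPM in male WT and 3058 and 2435 CPM in male NT-KO, which overlap, with a log2 fold change of 0.19 ± 0.23 that was -0.03 without male WT replicate 2 and 0.45 without replicate 1 of that group.

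Ces2b is a member of the Ces2 family, whose enzymes cleave esters with a small acyl group. It was counted 1272 and 488 times for male WT, 46 and 17 times for male NT-KO, 9 and 27 times for female WT and 19 and 24 times for female NT-KO. As CPM this was 22.4 and 11.5 for male WT, then 0.936 and 0.324 for male NT-KO, 0.165 and 0.397 for female WT and last 0.334 and 0.367 for female NT-KO. Male WT stood alone, and male NT-KO overlapped with both female groups. The log2 fold change in males was -4.76 ± 0.57. Leaving out male NT-KO replicate 1 gave -5.70 and leaving out the other replicate of that group gave -4.18, and with either male WT library left out the gene no longer passed the filter. The low groups rest on 9 to 46 reads per library, over the floor of 3. Ces2c, 91.3% identical to Ces2b in aligned coding bases, had between 973 and 3728 reads in those libraries. Whether some of its reads were counted for Ces2b was not tested.

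Ces2a, its neighbour at the start of the run, had 502 and 342 CPM in male WT and 508 and 381 CPM in male NT-KO and did not differ beyond the spread (log2 fold change 0.07 ± 0.30, from -0.18 without male WT replicate 2 to 0.37 without male WT replicate 1). Ces2e had 194 and 157 CPM in male WT and 101 and 351 CPM in male NT-KO. The male NT-KO libraries of Ces2e lay on both sides of the WT libraries, so that its log2 fold change of 0.37 ± 0.50 became 1.00 or -0.80 when the first or the second of them was left out.

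The Ces3 genes overlapped between the male groups. Ces3a had 3195 and 2793 CPM in male WT and 3240 and 2083 CPM in male NT-KO, with a log2 fold change of -0.17 ± 0.24. It ran from -0.52 without male NT-KO replicate 1 to 0.11 without male NT-KO replicate 2. Ces3b had 1743 and 842 CPM in male WT and 1161 and 610 CPM in male NT-KO, with -0.55 ± 0.41. This direction rested on male WT replicate 1, without which the value was 0.07, and it was -1.08 without male NT-KO replicate 1. The first replicate was the higher one for both genes in both male groups. In CPM, the 2 libraries of a group lay further apart than the 2 group means.

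In females, none of the 10 members set the genotypes apart. The log2 fold changes ran from -0.05 (Ces3a) to 0.35 (Ces2e), each no larger than its SE, and no member had groups without overlap, where 12.2% of all genes lay higher and 14.2% lower. Ces1g had 239 and 335 CPM in female WT and 309 and 345 CPM in female NT-KO (log2 fold change 0.19 ± 0.21). Ces1d had 1106 and 1319 CPM in female WT and 1125 and 1833 CPM in female NT-KO (0.29 ± 0.31). The quasi-likelihood test, the likelihood ratio test and DESeq2 each called 0 members, with 0.00762%, 0.0839% and 0.0381% of all genes called, and 0 members had an unadjusted p under 0.05. The median log2 fold change of the members was 0.19, against 0.0012 over all genes tested.

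Over both sexes, Ces1g (0.65 ± 0.15), Ces1f (0.56 ± 0.21) and Ces1d (0.54 ± 0.22) had the highest log2 fold changes and Ces2b the lowest (-2.23 ± 0.42). The quasi-likelihood test called 0 members, where it called 0.0152% of all genes, and 4 members had an unadjusted p under 0.05, against 5.42% of all genes tested. Ces2b was called by the likelihood ratio test (0.29% of all genes called) and by DESeq2 (0.297%). Whether the genotype difference itself differed between the sexes was fitted as an interaction, female minus male. Ces2b had the largest value, 5.04 ± 0.84, and Ces1g (-0.93 ± 0.30) and Ces1e (-0.90 ± 0.38) followed in the other direction. Here too the quasi-likelihood test called 0 members (0.0152% of all genes) and 3 had an unadjusted p under 0.05 (7.20% of all genes), while the likelihood ratio test and DESeq2 each called Ces2b (0.351% and 0.473% of all genes). Ces2b entered the fit only through male WT, which both comparisons hold, so its calls here are no test. The comparisons of this paragraph use the same libraries as those above and add no independent measurement.

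**Figure D3:**
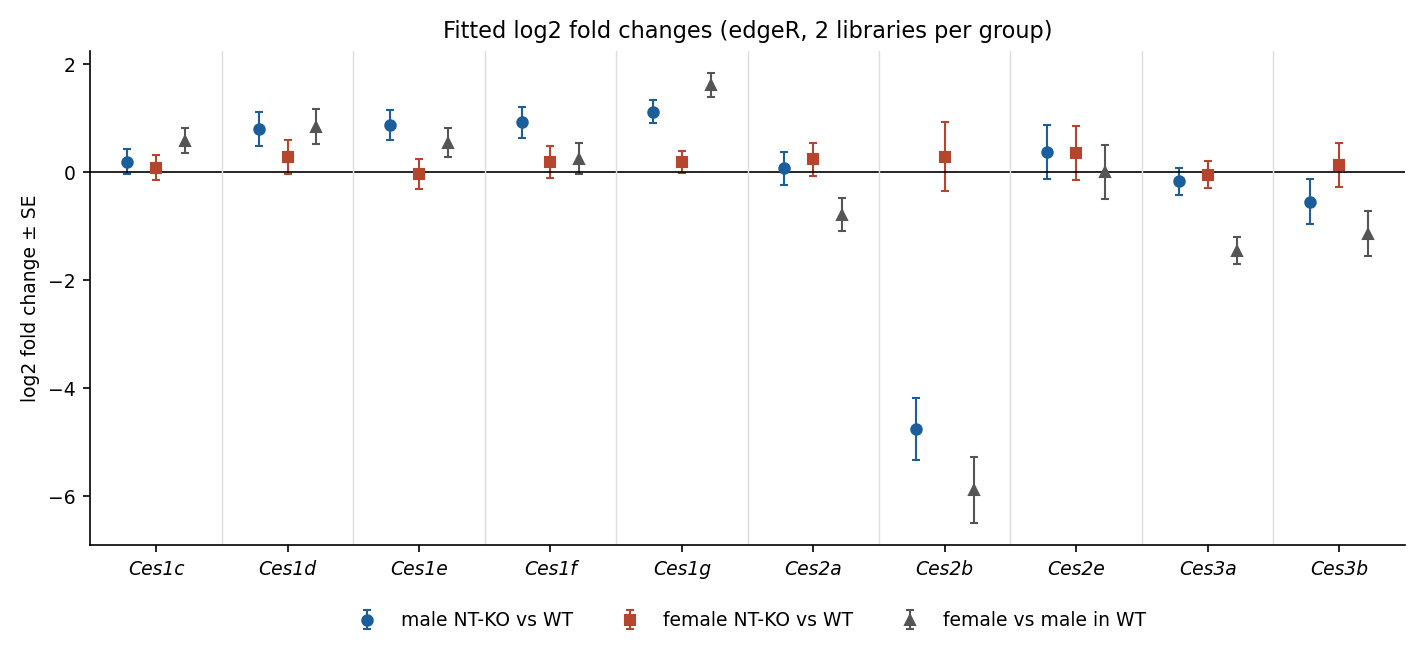
Fitted log2 fold changes of the 10 members with their SE, for male NT-KO vs WT (circles), female NT-KO vs WT (squares) and female vs male in WT (triangles); 0 is no difference. Ces2b is at -4.76 in male NT-KO vs WT and at -5.88 in female vs male WT, Ces1d to Ces1g lie between 0.80 and 1.12 in males, and all female genotype values lie between -0.05 and 0.35.

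The second question the design allows is how the members differ between the sexes, in WT and in NT-KO. These comparisons share the male WT and male NT-KO libraries with the genotype comparisons above. In WT livers, Ces1g was higher in females by 3.06-fold, and Ces3a and Ces2b were lower by 2.74-fold and 58.8-fold. The quasi-likelihood test and the likelihood ratio test each called these 3 members, where they called 4.68% and 7.92% of all genes, and DESeq2 called Ces3b as well (7.52% of all genes). Female groups without overlap were seen for 4 members upward (Ces1c, Ces1d, Ces1e and Ces1g, background 31.4%) and 4 downward (Ces2a, Ces2b, Ces3a and Ces3b, background 30.6%). Ces1f and Ces2e overlapped. Since the members were picked with their levels known, nothing is read from these counts. Ces2b entered the fit only through male WT, so its call is no test. When either male WT library was left out, Ces2b was not tested. In the quasi-likelihood test, fewer members were called when any 1 of the WT libraries was left out. The share of all genes called in those fits is not given here, so nothing is read from this.

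Ces3a had 3195 and 2793 CPM in male WT and 1073 and 1111 CPM in female WT, a log2 fold change of -1.45 ± 0.25 that ran from -1.55 to -1.36 with 1 library left out. The female libraries were close to each other, and all 4 male libraries lay above all 4 female ones. Ces3b, its near copy, had 1743 and 842 CPM in male WT and 604 and 568 CPM in female WT (-1.14 ± 0.42). Leaving out the first male WT library gave -0.53, and leaving out the second gave -1.57.

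Ces1g had 97.4 and 90.2 CPM in male WT and 239 and 335 CPM in female WT, a log2 fold change of 1.61 ± 0.22 that stayed between 1.35 and 1.84 without any 1 library. The male NT-KO libraries, at 186 and 222 CPM, stood between these groups without touching either. Ces1d (0.84 ± 0.32), Ces1c (0.59 ± 0.23) and Ces1e (0.55 ± 0.27) had smaller values in the same direction. With 1 library left out, Ces1d ran from 0.54 (without male WT replicate 2) to 1.22 (without male WT replicate 1). Ces1c ran from 0.37 to 0.84 without the same libraries. Ces1e ran from 0.26 (without female WT replicate 2) to 0.84 (without male WT replicate 1). Ces2a was lower in females, with 213 and 277 CPM against 502 and 342, a log2 fold change of -0.79 ± 0.31 that ran from -1.04 to -0.49 when male WT replicate 2 or replicate 1 was left out. For Ces2b the value was -5.88 ± 0.61, from the counts given above, and it ran from -6.67 to -5.41 without either female WT library.

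The same comparison was made in NT-KO livers. Ces3a had 3240 and 2083 CPM in male NT-KO and 976 and 1141 CPM in female NT-KO (-1.33 ± 0.25), and it was the 1 member called by each of the 3 tests, which called 1.78%, 3.13% and 3.06% of all genes. The quasi-likelihood call was lost with the libraries of the 2 groups alone, with a replicate block and without any 1 library other than male NT-KO replicate 2. Ces1g lay higher in females, at 309 and 345 CPM against 186 and 222, by 0.68 ± 0.21. Ces1c also lay higher without overlap, making 2 members against a background of 17.4%, and Ces1f, Ces2a and Ces3a lower, making 3 against 16.9%. Ces2b, with both NT-KO groups under 1 CPM, overlapped (-0.83 ± 0.60), and Ces3b overlapped as well (-0.46 ± 0.41).

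Genes with a known sex bias in liver were taken as lists beside the members. The mean centred log2 level of 11 male-biased genes (such as Cyp2d9 and Elovl3) was 2.62 and 2.50 for male WT and then 2.27 and 2.21 for male NT-KO, against -2.95 to -1.82 in the 4 female libraries. Both values of male NT-KO lay below both of male WT, and 8 of the 11 genes had a negative log2 fold change between these groups (median -0.34, against 0.012 over all genes tested). Of these 11 genes, 9 were called lower in females in WT and 8 in NT-KO, and 0 were called in male NT-KO vs WT, where 3 had an unadjusted p under 0.05 and the likelihood ratio test also called 0. The 11 female-biased genes (such as Cyp2b9 and Sult3a1) had levels of -5.06 and -3.03 for male WT and then -5.15 and -4.06 for male NT-KO, against 3.95 to 4.81 in females. Of these, 10 were called higher in females in WT and 9 in NT-KO. In male NT-KO vs WT 0 were called by the quasi-likelihood test and 3 had an unadjusted p under 0.05, while the likelihood ratio test called Acot3 higher (log2 fold change 3.06) and Cyp3a41a (-2.92) and A1bg (-4.58) lower. Both lists were written with their sex bias known.

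The 10 carboxylesterases that are no members were examined in the same fit with an FDR over all genes tested. Of these, 5 passed the filter (Ces1b, Ces2c, Ces2d-ps, Ces2g and Ces4a). Ces1a, Ces1h, Ces2f, Ces2h and Ces5a did not, with at most 67 reads in any library. In female vs male WT, 3 of the 5 were called lower in the quasi-likelihood test and 0 higher: the log2 fold change was -3.38 for Ces4a (FDR 0.0294), -1.77 for Ces2c (FDR 0.0466) and -1.24 for Ces2d-ps (FDR 0.0385). All are in the plus-strand run, as are the members that lay lower in females. Leaving out single libraries left between 0 and 3 calls, with 0 when either male WT library or female WT replicate 1 was left out.

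Ces4a, at the far end of that run, had 7.29 and 8.19 CPM for male WT, then 2.54 and 0.705 for male NT-KO, 0.951 and 0.543 for female WT and last 1.00 and 0.336 for female NT-KO. As for Ces2b, male WT stood above every other library. It shares no 50-base stretch with another gene. In male NT-KO vs WT its log2 fold change was -2.25 ± 0.63, which did not pass in the quasi-likelihood test (FDR 0.268) but did in the likelihood ratio test (FDR 0.0415) and in DESeq2 (FDR 0.00569). None of the 5 was called by the quasi-likelihood test in male NT-KO vs WT, where 1 had an unadjusted p under 0.05.

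Ces2c and Ces2d-ps stand next to Ces2b. Ces2c had 123 and 79.0 CPM for male WT, then 41.7 and 71.1 for male NT-KO, 17.8 and 41.5 for female WT and last 37.8 and 40.2 for female NT-KO. Ces2d-ps, a pseudogene of which 76.9% of stretches occur in other genes, had 24.03 and 19.0 CPM for male WT, then 13.9 and 15.2 for male NT-KO, 6.55 and 11.7 for female WT and last 10.7 and 9.21 for female NT-KO. Both were highest in male WT without overlap, with log2 fold changes in male NT-KO vs WT of -0.84 ± 0.41 (FDR 0.477) and -0.57 ± 0.27 (FDR 0.466) that did not pass the quasi-likelihood test. Ces2c shares 36.1% of its stretches, mostly with Ces2d-ps, so these values may not be independent. That depends on how reads with several matches were counted, which is not given in the sources used here. Ces1b, next to Ces1c, had 400 CPM in male WT replicate 1 and between 94.3 and 188 CPM in the other 7 libraries. Ces2g lay between 32.8 and 61.5 CPM in all libraries and passed in no comparison.

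**Figure D4:**
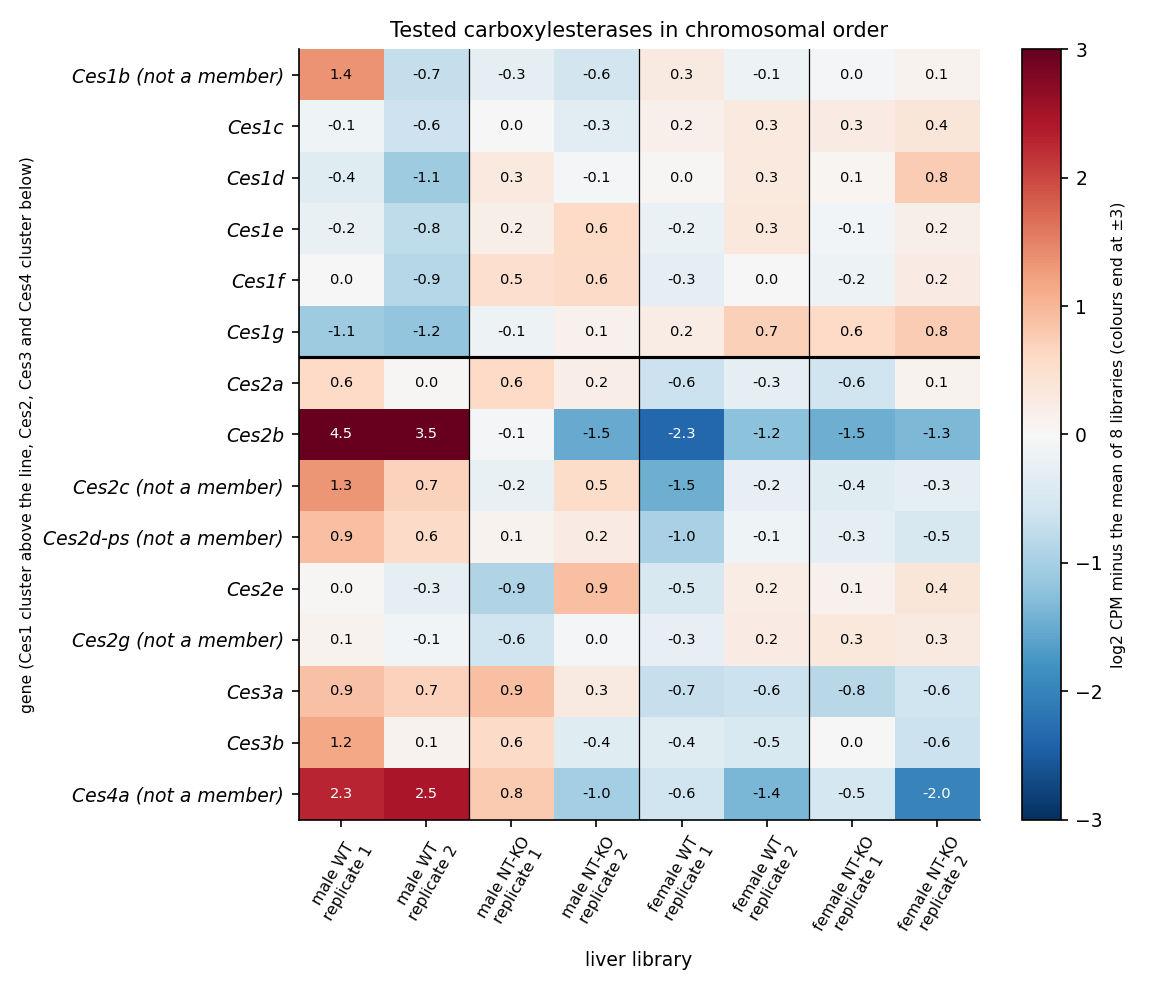
Level of the 15 carboxylesterases tested in each library, as log2 CPM minus the gene's mean over the 8 libraries, with genes in chromosomal order (the Ces1 run above the line, the Ces2, Ces3 and Ces4 run below). Ces2b and Ces4a stand out in the 2 male WT libraries, and Ces1g is lowest in these libraries.

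Promoter sequences (250 bases before to 50 after the start, RefSeq, GRCm38.p6) were found for 6 of the 10 members: Ces1c, Ces1e, Ces1g, Ces2a, Ces2e and Ces3b. Those of Ces1g, higher in females, and of Ces3b, lower in females, are shown as the pair with opposite directions and a TATAAA match, on either strand, in capitals.
Ces1g, chr8:93337160-93337459, minus strand: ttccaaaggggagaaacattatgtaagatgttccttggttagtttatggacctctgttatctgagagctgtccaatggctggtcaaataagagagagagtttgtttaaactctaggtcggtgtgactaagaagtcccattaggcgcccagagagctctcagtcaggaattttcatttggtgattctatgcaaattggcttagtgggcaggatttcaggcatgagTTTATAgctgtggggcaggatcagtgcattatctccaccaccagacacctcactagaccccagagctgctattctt
Ces3b, chr8:105083505-105083804, plus strand: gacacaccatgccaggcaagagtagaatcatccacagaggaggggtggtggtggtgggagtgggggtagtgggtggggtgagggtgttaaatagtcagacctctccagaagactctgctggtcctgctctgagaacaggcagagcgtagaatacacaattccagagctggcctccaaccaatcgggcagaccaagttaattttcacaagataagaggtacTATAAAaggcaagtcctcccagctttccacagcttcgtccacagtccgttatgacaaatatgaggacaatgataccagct
The match lies from base -26 to -21 in Ces1g, on the opposite strand, and from -30 to -25 in Ces3b, and 13.6% of 32851 promoters of this length hold one. Searched on both strands, TTCNNNGAA, the form bound by STAT5, had no match in the 6 promoters (8.30% of all promoters hold it). The same was true of CAAAGTCCA, an HNF4A form (0.475% of all). TTGCNNAA, a C/EBP form, was found once in Ces1c and Ces2e and at 2 places in Ces2a (10.8% of all). None of these matches overlapped another.

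Genes of the same biology were taken as 9 further lists, with 110 of 113 genes tested. No gene of these lists was called by the quasi-likelihood test in male NT-KO vs WT, in female NT-KO vs WT, over both sexes or in the interaction. In males the likelihood ratio test called 11 of the 110 and DESeq2 called 10. In female vs male WT the quasi-likelihood test called 32 of the 110, of which 19 belong to the male-biased and female-biased lists, and in female vs male NT-KO it called 18.

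Among 19 other ester and lipid hydrolases tested, 2 had an FDR of at most 0.05 in female vs male WT, both higher. Pon1, the paraoxonase of plasma lipoproteins, had 722 and 690 CPM in male WT and 1206 and 1244 CPM in female WT (log2 fold change 0.79 ± 0.18, FDR 0.0406 in edgeR's quasi-likelihood test). Lipc, hepatic lipase, had 138 and 125 CPM against 218 and 232 CPM (0.78 ± 0.19, FDR 0.0489). In NT-KO the 1 gene that passed was Mgll, the monoglyceride lipase, higher in females by 0.87 ± 0.16 (FDR 0.0326). In male NT-KO vs WT 1 of the 19 had an unadjusted p under 0.05 and the likelihood ratio test called 0.

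Of 12 genes of triglyceride storage and VLDL assembly, 1 was called higher and 1 lower in female vs male WT. Tm6sf2, which takes part in the lipidation of VLDL, had 17.8 and 13.9 CPM in male WT and 33.8 and 43.5 CPM in female WT (1.29 ± 0.23, FDR 0.0212), and it was higher in females in NT-KO as well (1.25 ± 0.23, FDR 0.034). Abhd5, the coactivator of the lipid droplet lipase Pnpla2, had 42.8 and 23.7 CPM in male WT and 12.3 and 16.5 CPM in female WT (-1.21 ± 0.29, FDR 0.0465). Of this list 3 genes had an unadjusted p under 0.05 in male NT-KO vs WT, and 0 were called by the likelihood ratio test.

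Among the receptors and factors that control xenobiotic and lipid genes, Cux2 was called higher in female vs male WT. Cux2, a factor of female liver known to repress male-biased genes, had 0.247 and 0.448 CPM in male WT and 99.5 and 38.4 CPM in female WT (7.66 ± 0.59, FDR 0.000498). Cux2 was the 1 gene of this list called in NT-KO (6.90 ± 0.56, FDR 0.000808). Of 15 enzymes of the xenobiotic response, 2 were called higher in female WT and 0 in the other 3 comparisons between groups: Cyp2b10, the target of the receptor CAR (3.17 ± 0.72, FDR 0.0421), and Nqo1, a target of NRF2 (2.29 ± 0.34, FDR 0.0108). Of the 4 genes of ER retention, 3 were tested and 0 were called in any of these comparisons, with 1 at an unadjusted p under 0.05 in male NT-KO vs WT.

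ER chaperones and some clock genes stood apart in the male WT libraries. All 11 chaperones were lower in male NT-KO than in male WT, all 11 with an unadjusted p under 0.05, but 0 passed the quasi-likelihood test and 6 were called by the likelihood ratio test. In female vs male WT 3 of 11 were called lower: Hyou1 (log2 fold change -1.86, FDR 0.0294), Dnajc3 (-1.14, FDR 0.0323) and Pdia6 (-1.09, FDR 0.0411). Of 11 clock genes tested, 5 were called in female vs male WT, 3 lower and 2 higher. Per3 (1.15 ± 0.14, FDR 0.00339) was higher, and Arntl (-2.83 ± 0.42, FDR 0.0101) and Clock (-1.33 ± 0.21, FDR 0.0121) were lower. Arntl had 4.16 and 4.11 CPM for male WT, then 1.91 and 1.33 for male NT-KO, 0.622 and 0.544 for female WT and last 1.53 and 0.673 for female NT-KO. The part of the chaperone level and of the clock genes in the values of the members was not tested.

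Among the cell type markers, most of those that passed were of blood. All 4 tested erythroid markers were called lower in female vs male WT, led by Alas2 (log2 fold change -3.46, FDR 0.00207 in edgeR's quasi-likelihood test), which was also lower in NT-KO females (-2.99, FDR 0.00442). B lymphocyte markers, of which 3 of 5 were called higher in female WT, summed to 6.55 and 3.80 CPM for male WT, then 9.03 and 51.0 for male NT-KO, 21.1 and 21.8 for female WT and last 8.03 and 11.8 for female NT-KO. The kidney marker Lrp2 was called lower in females in WT and NT-KO (log2 fold changes -4.28 and -4.21), with the other 4 kidney markers at or under the floor, and Cd4 was the 1 T lymphocyte marker tested and was called lower in female WT (-1.53). The other 4 T lymphocyte markers, Cd3d, Cd3e, Cd3g and Cd8a, did not pass the filter and lay higher in female WT (0.348 to 1.35 CPM) than in male WT (0.0353 to 0.212 CPM), each without overlap. Fabp2, the 1 marker of small intestine tested, was higher in female WT (0.89 ± 0.21, FDR 0.0463). Markers of hepatocytes, cholangiocytes, Kupffer cells, sinusoidal endothelial cells and stellate cells held no gene past the FDR in any comparison between 2 groups. In male NT-KO vs WT no cell type marker passed the quasi-likelihood test. Their part in the values of the members was not tested.

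For the 3 members whose log2 CPM had the widest range, the tested genes outside the family with the most similar pattern were sought, as the smallest root mean square difference of centred log2 CPM over the 8 libraries. Ces2b ranged over 6.81 log2 units, and its nearest genes were Fmn2 (difference 0.980), Mid1 (1.21) and Gm20121 (1.21). Fmn2 (1.62 and 1.56 CPM in male WT, at most 0.427 elsewhere) passed the filter only through male WT, as Ces2b did. The same holds for Gm20121 (9.12 and 1.49 CPM in male WT, at most 0.515 elsewhere). Part of the likeness of these genes to Ces2b was thus built in by the filter. Mid1 had 36.8 and 44.1 CPM for male WT, then 3.44 and 1.85 for male NT-KO, 1.92 and 1.89 for female WT and last 12.8 and 1.71 for female NT-KO. Ces1g ranged over 1.94 log2 units, with Nrp2 (0.135), Phf19 (0.158) and Smim24 (0.174) nearest. Nrp2 had 7.91 and 7.29 CPM for male WT, then 13.0 and 16.96 for male NT-KO, 15.4 and 22.2 for female WT and last 24.2 and 28.8 for female NT-KO. Ces1d ranged over 1.83 log2 units and was nearest to Slc2a9 (0.132), Cabcoco1 (0.163) and Klf1 (0.169). The patterns near Ces1g and Ces1d differed from them little, while those near Ces2b differed from it by about 1 log2 unit per library. These are the closest of 13102 candidates, and how close the nearest genes of other genes lie was not examined.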

How the data were processed

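The deposited values are whole-number read counts per gene for 8 libraries of total liver RNA, which the authors made from TruSeq libraries. Per the submitters' processing notes the tools were FastQC, cutadapt, STAR 2.6.1a and featureCounts with the GRCm38 build. The deposited counts carry no normalization. The strand setting of the counting is not given in the sources used here. Columns were assigned by their description labels, and 0 columns were left unused. Of 49671 gene IDs, 49326 matched GENCODE M21.

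From the counts, TMM-scaled CPM, log2 CPM (prior count 2) and log2 fold changes were computed with R 4.3.3 and edgeR 4.0.16. Genes that reached 1 CPM in 2 libraries or more entered the fit, without rRNA, miRNA and mitochondrial genes. The quasi-likelihood fit covered all 8 libraries with 1 mean per group, two-sided and without a replicate block, with Benjamini-Hochberg adjustment over 13117 genes. A gene was called at an FDR up to 0.05 with a log2 fold change beyond 1 in size. The SE is the log2 fold change divided by the square root of F. DESeq2 1.42.0, the likelihood ratio test, other scalings and filters, a replicate block, the 2 groups alone, the FDR alone, a prior count of 0.5, stretches of 100 bases and each library left out in turn were alternatives. The fits were tested on simulated data. Replicates differed by more than sampling noise (chi-square per degree of freedom of at least 112).

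The members, the gene lists and the tests were chosen with earlier results of these data known. Named are all members, all other carboxylesterases, Lbr, Xist and Ddx3y, per list and comparison at most 3 genes with the smallest FDR among those of at most 0.05, and the 3 nearest genes of the 3 members with the widest range. Gusb, Arntl in all groups, the examples of the sex-biased lists, Gm7208 and the summed markers were added for context. The count of called genes in the list of receptors and factors, 1 of its genes and 1 searched motif are not reported here. Coding sequences came from GENCODE M21 and promoters from RefSeq; they were aligned and searched with Biopython 1.88.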

Additional observations from a re-analysis of the deposited data

How the results depend on the processing

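With 2 libraries a group, calls depended on the test. The number of all tested genes called moved too, libraries left out aside. It ran from 0 to 667 in male NT-KO vs WT, from 2 to 205 over both sexes and from 2 to 552 in the interaction. The main fit called 2 in each. In female vs male WT it ran from 456 to 1736 (main fit 614) and in female vs male NT-KO from 198 to 825 (234). Nothing about the members is read from their counts below, since the share of all tested genes called under each setting is not given beside them. Ces2b was not tested when either male WT library was left out, which bears on those counts. Of 986 log2 fold changes of the members under the alternatives, 984 moved by less than the spread between replicates. The exceptions were Ces2b in female NT-KO vs WT without female WT replicate 2 (1.08) and Ces3a in female vs male WT with library size only (-1.28). With 2 libraries a group, leaving 1 out only moves the group mean to the other library. Most of those values were thus bound to stay within the spread, and the 984 are no sign of stability. They include changes of sign, such as Ces2e in male NT-KO vs WT (0.37, and -0.80 without male NT-KO replicate 2). In male NT-KO vs WT the number of members called was 0, and it became 2 with the likelihood ratio test, with DESeq2 and with no filter beyond 1 count, and 1 with filterByExpr. Over both sexes and in the interaction it was 0, and 1 under each of the first 3 of these. Without any 1 library it stayed at 0 in these 3 comparisons. In female vs male WT it was 3, and between 1 and 3 with a library left out (1 without male WT replicate 1). In female vs male NT-KO it was 1, and 0 with the libraries of the 2 groups alone or without any 1 library other than male NT-KO replicate 2 (range 0 to 1).

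Of the other carboxylesterases, 0 were called in male NT-KO vs WT, and 1 with the likelihood ratio test, 1 with DESeq2 and 2 with no filter. With no filter, 1 was called over both sexes, 2 in the interaction and 1 in female vs male NT-KO, in place of 0. In female vs male WT the 3 calls became 1 with the 2 groups alone and 0 to 3 with a library left out (0 without male WT replicate 1, male WT replicate 2 or female WT replicate 1, 1 without either female NT-KO library). Of the genes of the 9 lists, 0 called in male NT-KO vs WT became 11 (likelihood ratio test), 10 (DESeq2), 21 (no filter) and 0 to 6 with a library left out (6 without male WT replicate 1, 1 without male NT-KO replicate 1). Over both sexes they became 5, 4, 12 and 0 to 1 (1 without male WT replicate 1), and in the interaction 2, 2 and 27. With no filter, 4 were called in female NT-KO vs WT, and 50 in female vs male WT in place of 32, which was 18 to 36 with a library left out (18 without female WT replicate 2). The cause of these shifts was not tested. With a library left out, its group's lone library is assumed to vary like the others.

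The groups share replicate numbers, but same-numbered libraries did not deviate together (correlation of deviations -0.00665 in males and 0.0230 in females). The deviations thus gave no sign of pairing by number. With 2 libraries a group, this cannot exclude matched litters or matched handling. With a replicate block, the members called were 1 in place of 0 in male NT-KO vs WT, 0 in place of 1 in female vs male NT-KO, and 3 as before in female vs male WT, and of the other carboxylesterases 1 in place of 3 was called in female vs male WT. The share of all tested genes called with the block is not given here, so nothing is read from these counts.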
